A study of Mus musculus with 6 samples.

Results

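The collagen genes are the protein-coding genes of the RefSeq table on GRCm38 whose symbol is Col, a number, the letter a and a number, and 44 of 21887 protein-coding genes met that rule. Their chromatin was described from 1 deposited list of accessible intervals of Ezh2-null mouse embryonic fibroblasts. The study used ATAC-seq, in which a transposase cuts and tags open DNA, on 1 c-myc-immortalised fibroblast line, line A, also named C2. Its 3 groups of 2 samples were Ezh2 -/- cells, Ezh2 -/- cells rescued with retroviral pMSCV-Ezh2, and wild-type cells, all carrying the immortalising c-myc. Ezh2 is the catalytic subunit of the Polycomb complex that methylates histone H3. Only the Ezh2 -/- list is analysed here, and nothing below is a difference between genotypes. Replicate values and read depth are not part of that list, which leaves every value without an error and every comparison without a test. A bulk profile cannot tell fewer cells with an open site from a weaker opening in every cell.

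Collagens are secreted proteins of 3 chains wound into a triple helix, and a given collagen type may be built from 1 kind of chain or from several encoded by different genes. Fibrillar collagens form the tensile fibrils of skin, tendon, bone and cartilage, and fibroblasts are the classic source of types I, III, V and VI. Type IV chains make the sheet-like network of basement membranes, FACIT collagens decorate the surface of fibrils, and a small cartilage set is the signature of chondrocytes. The type IV genes are known for their arrangement in pairs that are transcribed in opposite directions from a common start region.

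A few promoters show the range of sequence met among these genes. Each run gives the 250 bases before the RefSeq start (GRCm38.p6, sequences from RefSeq), read 5′ to 3′ on the gene's strand, with capitals marking every match on either strand to the TATA box letters TATAAA, the CCAAT box letters CCAAT or the GC box letters GGGCGG. The first 4 genes had an accessible interval over the start, and the last, Col11a1, had none within 50 kb. They were chosen after the values had been seen.
Col1a2 (chr6:4505368-4505617, plus strand): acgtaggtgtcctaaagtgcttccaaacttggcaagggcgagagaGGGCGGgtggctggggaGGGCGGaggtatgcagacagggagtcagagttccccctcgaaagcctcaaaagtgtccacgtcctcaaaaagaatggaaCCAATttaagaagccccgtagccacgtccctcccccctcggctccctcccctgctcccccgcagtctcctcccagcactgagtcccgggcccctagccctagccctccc
Col3a1 (chr1:45311288-45311537, plus strand): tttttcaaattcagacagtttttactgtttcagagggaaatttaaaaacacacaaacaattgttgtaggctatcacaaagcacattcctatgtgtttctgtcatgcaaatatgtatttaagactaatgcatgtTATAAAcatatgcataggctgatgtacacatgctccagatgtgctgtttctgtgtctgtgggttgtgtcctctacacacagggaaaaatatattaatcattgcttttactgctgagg
Col6a1 (chr10:76726045-76726294, minus strand): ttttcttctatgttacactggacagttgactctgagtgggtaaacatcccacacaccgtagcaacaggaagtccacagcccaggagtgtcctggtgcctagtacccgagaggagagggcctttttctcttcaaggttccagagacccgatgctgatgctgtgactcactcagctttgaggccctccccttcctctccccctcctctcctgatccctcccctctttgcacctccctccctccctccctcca
Col5a1 (chr2:27886175-27886424, plus strand): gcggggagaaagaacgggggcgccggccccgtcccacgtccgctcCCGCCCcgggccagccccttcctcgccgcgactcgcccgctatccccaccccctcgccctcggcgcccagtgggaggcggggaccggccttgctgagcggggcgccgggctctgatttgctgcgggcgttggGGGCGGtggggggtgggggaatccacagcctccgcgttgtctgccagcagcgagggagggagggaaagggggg
Col11a1 (chr3:114030290-114030539, plus strand): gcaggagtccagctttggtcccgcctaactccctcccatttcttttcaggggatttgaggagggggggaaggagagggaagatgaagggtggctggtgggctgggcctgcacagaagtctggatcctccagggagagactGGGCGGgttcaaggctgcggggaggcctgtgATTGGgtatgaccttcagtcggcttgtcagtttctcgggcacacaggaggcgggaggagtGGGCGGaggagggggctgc
Col3a1 held no CpG dinucleotide in its 250 bases and 1 TATAAA, starting 117 bases before the start. Col5a1 held 28 CpG dinucleotides and 2 GC boxes, Col1a2 held 11 with 1 CCAAT and 2 GC boxes, Col11a1 held 7 with 1 CCAAT and 2 GC boxes, and Col6a1 held 3 and no match. The motifs thus stood before starts with an interval and before one without.

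Of the 44 collagen genes, 19 (43.2%) had an interval reaching to 1 kb or less from a gene end, called a gene-end interval here. The share of all protein-coding genes was 47.4%. How near the family stood to the background depended on the comparison. Without olfactory and vomeronasal receptor, keratin-associated and defensin genes, 51.1% of other genes had one. Among genes of 20 kb or longer the shares were 40% of collagen genes and 54.0% of other genes. With called regions above the median total signal the direction turned, 34.1% against 32.7%. The collagen classes differed in their counts. Fibrillar collagens had a gene-end interval at 7 of 11 genes, FACIT collagens at 5 of 9, and the basement-membrane type IV chains at 0 of 6. The type IV genes form 3 neighbouring pairs, so their facing ends are not separate sites. All are 100 kb or longer, a length at which 7 of 26 collagen genes had a gene-end interval. Short-chain network collagens had 2 of 3, the beaded-filament type VI chains 2 of 6, the multiplexins 1 of 2, the transmembrane collagens 1 of 4 and the remaining collagens 1 of 3. The cartilage collagens, a set that crosses these classes (Col2a1, Col9a1, Col9a2, Col9a3, Col10a1, Col11a1 and Col11a2), had 3 of 7. Of the 19 genes, 16 had an interval at one end only and 3 at both ends, namely Col7a1, Col18a1 and Col23a1. Another 14 collagen genes had an interval inside the gene but not at its ends, and 5 had none within 50 kb, which were Col4a5, Col4a6, Col6a6, Col11a1 and Col19a1. With no test made, these class counts describe this list alone.

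**Figure D1:**
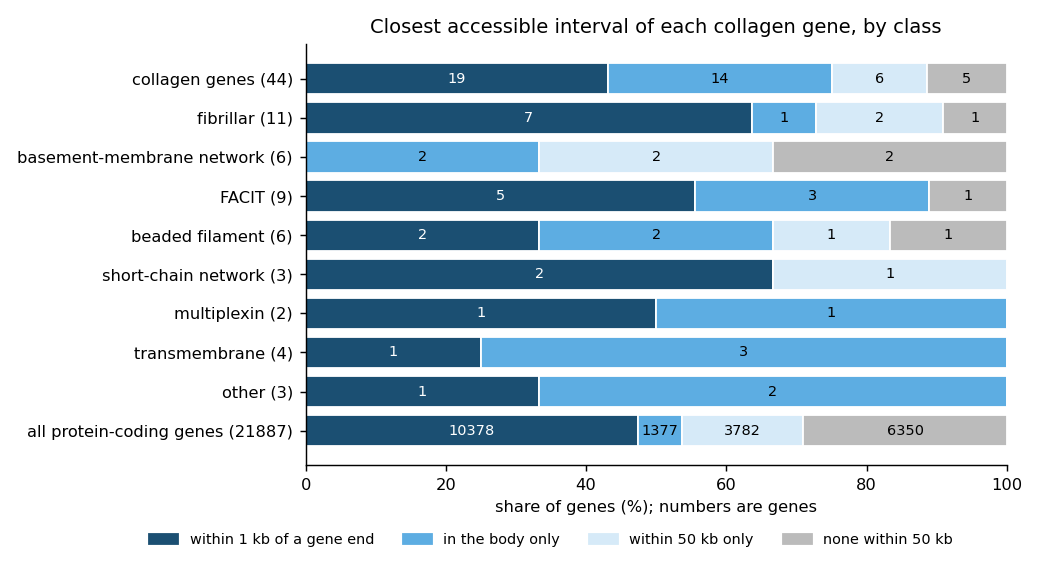
Share of genes in each state (x axis, %) for all collagen genes, the 8 classes, and all protein-coding genes at the bottom, with gene numbers in the bars and in parentheses. A dark bar marks an interval within 1 kb of a gene end, and the type IV row alone has no dark bar.

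Among the fibrillar genes the signals spread widely. A called region has, in the authors' units, a total signal, which is an area and grows with width, and a maximum signal, which is a height. Over all 10378 genes with a gene-end interval the median total signal was 39334.5 (quartiles 26240.25 and 64556) and the median maximum 38 (quartiles 28 and 49). Type I collagen, the main fibril protein of skin and bone, is made of chains from 2 genes. Col1a1 had an interval from 94935413 to 94938804 on chromosome 11 (mm10), and its called region reached 108721 in total signal and 47 at its maximum. That region also held an interval 5.1 kb outside the gene. Col1a2 had one from 4505106 to 4506933 on chromosome 6 (total signal 17073, maximum 18). The lowest total signal in the whole list was 15316, so the Col1a2 region stood just above the floor of the list while Col1a1 exceeded 89.9% of genes with a gene-end interval.

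The other fibrillar chains of fibroblasts also differed. Col3a1, which forms type III fibrils with type I in soft tissue, had an interval over its start from 45310593 to 45314656 on chromosome 1 (total signal 31674, maximum 19). Its neighbour Col5a2, a chain of type V collagen that starts fibril assembly, had one over its upper end from 45501041 to 45504159 (total 29361, maximum 32). These were the only intervals in or within 50 kb of Col3a1 and Col5a2, 1 for each gene. Col5a1, the partner chain of Col5a2, had one from 27885012 to 27890510 on chromosome 2 (total 105477, maximum 47). Its called region also held an interval 3.1 kb outside the gene. Col5a3, the least common type V chain, had none in the gene, and the nearest interval lay 14656 bp away. Thus Col1a1 and Col5a1 had total signals above the upper quartile of all genes, and their partners Col1a2 and Col5a2 were below the median.

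Col27a1, a fibrillar chain of cartilage and other tissues, had an interval over its start (total signal 73210, maximum 26), whereas Col24a1, a fibrillar chain found in developing bone, had none in the gene and its nearest interval 23745 bp away. Col2a1, the main fibril chain of cartilage, had an interval at its upper end from 98003215 to 98005729 on chromosome 15 (total signal 17688, maximum 17). A further 4 intervals inside Col2a1 belonged to 1 called region (total signal 100859, maximum 23). Col2a1 at its end was therefore about as weak as Col1a2, although the body of the gene carried a broad region that Col1a2 lacked.

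**Figure D2:**
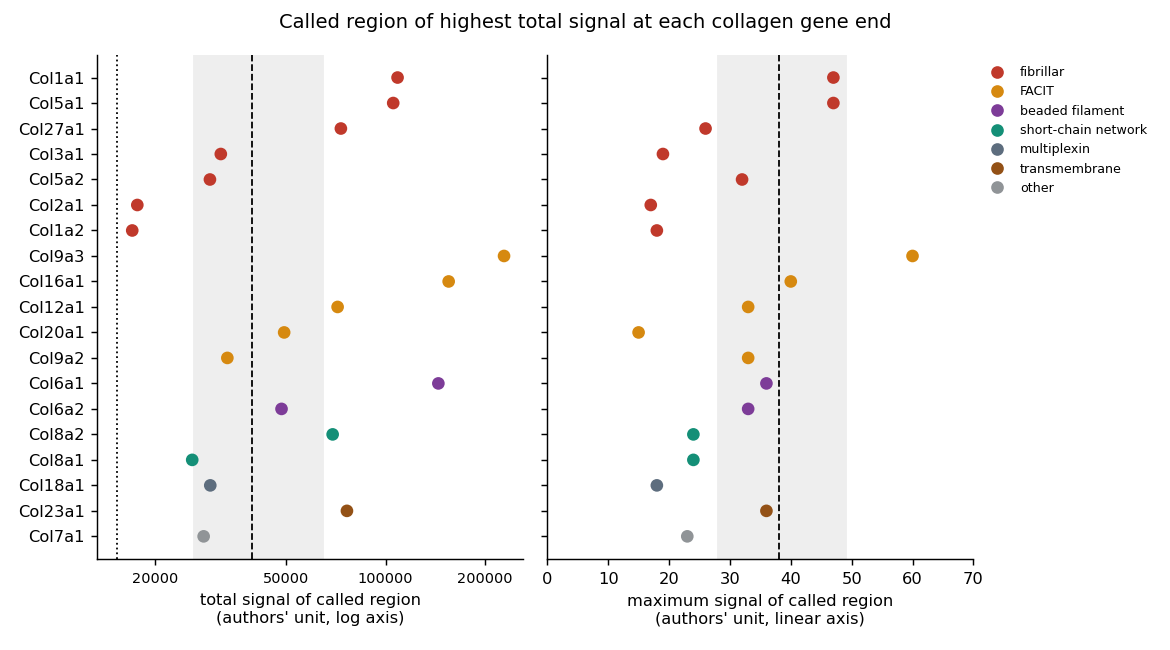
Total signal (left, log axis) and maximum signal (right, linear axis), in the authors' units, of the called region of highest total signal at the ends of the 19 collagen genes that had one. The dashed lines and grey bands give the median and quartiles over all genes with a gene-end interval and the dotted line the lowest total signal in the list, 15316; most points on the right lie left of the dashed line at 38.

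Collagen gene-end regions were wide and low beside the medians of all genes. The median width of the interval was 3799 bp over the 19 collagen genes, against 2742 bp over all genes with one, and 16 of the 19 were wider than the median of all. The median total signal was 49280, against 39334.5, and 11 of 19 exceeded that median. The median maximum was 32, against 38, and only Col9a3 (60), Col1a1 (47), Col5a1 (47) and Col16a1 (40) exceeded it. These are values of the called region, and that of Col9a3 was reached at 180582700, outside both the gene and its gene-end interval. Part of the wide intervals also reached the end of another gene, namely those of Col8a2 (8630 bp), Col23a1 (7797 bp) and Col9a3 (7483 bp). The narrower interval of Col20a1 did so too. How often this happened among all genes was not computed. The widest was that of Col6a1, 11923 bp, which reached no other gene end. Its maximum lay at -7348 bp from the start, upstream of it. The position of the maximum varied among the other starts. It was at -29 bp in Col8a1, -42 bp in Col16a1, -95 bp in Col3a1 and -196 bp in Col5a1, but at 608 bp in Col1a2, 1613 bp in Col9a2, -2102 bp in Col20a1 and -3844 bp in Col18a1.

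Type VI collagen, which forms beaded microfilaments around cells, is built from Col6a1, Col6a2 and another chain. Col6a1 (total signal 144531, maximum 36) and Col6a2 (total 48384, maximum 33) each had an interval over the start and lie on the same strand of chromosome 10 with 85161 bp between them, and 7 intervals reached into that stretch. Col6a3, which supplies the usual partner of these, had no gene-end interval but had 1 inside the gene, from 90837697 to 90841150 on chromosome 1 (total 27887, maximum 19), whose edge lay 2821 bp downstream of the annotated start. The alternative partners Col6a4, Col6a5 and Col6a6 stand side by side on chromosome 9. Col6a6 had no interval within 50 kb, Col6a4 had only 1, and that was the interval of Col6a5, which covered the RefSeq start of Col6a5 (total 16657, maximum 16) but stopped 1047 bp from the outermost end of that gene. With windows of 2500 bp in place of 1 kb it counted as a gene-end interval.

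The type IV genes had no gene-end interval at all. Col4a1 and Col4a2, the chains of nearly every basement membrane, overlap by 85 bp head to head on chromosome 8, and the nearest interval was 52355 bp from the overlap. Their 300-base promoter windows had CpG observed/expected ratios of 0.90 and 0.82 with a G+C content of 74% and 73.7%. A CCAAT box, shown here in capitals with its flanks, stood 32 bases before the Col4a2 start, where the Col4a1 gene runs on the other strand.
Col4a1-Col4a2 (chr8:11312761-11312790, plus strand): ccgaggagctccCCAATttgttggcgctgc
None of the 3 type IV pairs had an interval within 1 kb of its facing ends. Over all head-to-head pairs of starts in the RefSeq promoter table, from 500 bp overlapping to 2000 bp apart, 786 of 922 had an interval within 1 kb of a start (85.2%). That share is measured at starts rather than gene ends. By that measure Col4a1-Col4a2 and Col4a5-Col4a6 had none, and Col4a3-Col4a4 could not be measured because the table lacks Col4a3. Inside Col4a2 there were 4 intervals, all in the downstream part of the gene, centred 70.2, 80.8, 99.9 and 108.8 kb from the start, with total signals of 23132, 19425, 30384 and 20311. Col4a1 had 1 inside, 53.5 kb from its start, with a total signal of 15412, which is close to the floor of the list. The Col4a1 and Col4a2 bodies thus held called intervals but their common start did not.

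The other type IV pairs were emptier still. Col4a3 and Col4a4, chains of the kidney filter membrane, overlap by 114 bp on chromosome 1 and held no interval, and the nearest to their facing ends was 137582 bp away. Col4a3 had 1 interval 2557 bp beyond its other end and Col4a4 had 1 at 18377 bp beyond its own. Col4a5 and Col4a6 stand head to head on the X chromosome with 1274 bp between them, and the nearest intervals lay 875069 bp from Col4a5 and 565102 bp from Col4a6. Of the other genes within 5 Mb, only 5.0% around Col4a5 and 4.48% around Col4a6 had a gene-end interval, against 42.6% around Col4a1 and Col4a2 and 47.3% around Col4a3. On the X chromosome as a whole it was 11.9%, so the X-linked pair sat in a sparse stretch and the pair on chromosome 8 did not.

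Other neighbouring collagen genes also had no interval at the facing ends of both. Unlike the type IV pairs they stood 4944 to 85161 bp apart, so this says little about shared intervals. Col9a1 and Col19a1 end 4944 bp apart on chromosome 1, tail to tail, with no interval between them. Col3a1 and Col5a2 are 24624 bp apart with none between. None of the 8 neighbouring pairs of collagen genes had an interval within 1 kb of the facing ends of both genes. The same share over all neighbouring protein-coding genes was not computed, so this count has no background beside it. Col6a2 had one at the end that faces Col6a1, but Col6a1 had none at its own facing end.

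**Figure D3:**
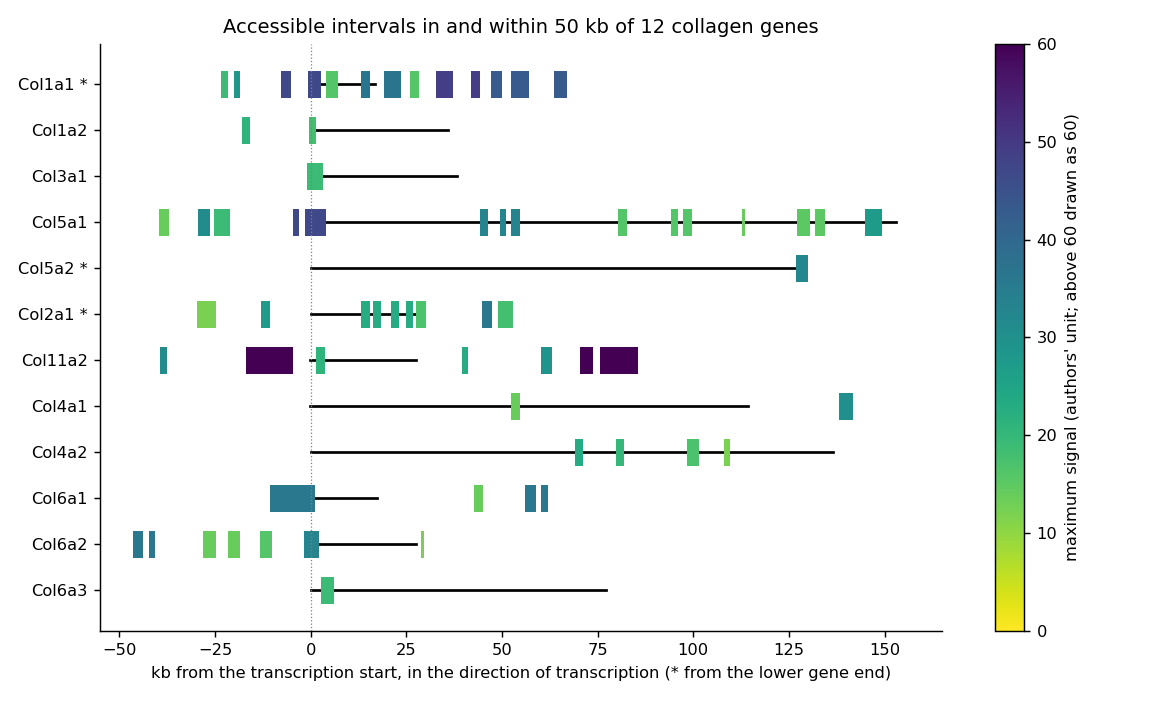
Gene bodies (black lines) and accessible intervals (boxes, drawn to scale along the x axis in kb, coloured by maximum signal) in and within 50 kb of 12 collagen genes, aligned at the transcription start or, for those with an asterisk, at the lower gene end. Col4a1 and Col4a2 have intervals only away from the start, while Col1a2, Col3a1 and Col6a1 have one over it.

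Cartilage collagens split between the chains. Col9a2 and Col9a3, 2 of the chains of type IX collagen that coats cartilage fibrils, had a gene-end interval (total signals 33154 and 228557, maxima 33 and 60). The Col9a3 interval of 7483 bp also reached the end of the neighbouring opioid growth factor receptor gene Ogfr, and the maximum of its called region lay outside that interval. Col9a1, the remaining type IX chain, had none at its ends, but an interval from 24194364 to 24197977 covered the second of its annotated starts (total 40698, maximum 26), with its maximum at -68 bp from that start. Col9a1 is known to have alternative promoters, the upstream one used in cartilage and the downstream one in the eye. Its upstream start was 16754 bp from that interval. Col11a1, a chain of the thin cartilage fibrils, had no interval within 398934 bp, and Col11a2 had 1 inside the gene, 1388 bp from its start (total 45051, maximum 21). Col10a1, the collagen of hypertrophic chondrocytes, had none in the gene, with the nearest 18759 bp away. Of 7 chondrocyte marker genes, 3 had a gene-end interval (Sox9, Matn1 and Comp) and Acan, Cnmd, Hapln1 and Matn3 had none, a share of 42.9% against 47.4% of all genes. Of 12 fibroblast markers 8 did, and those without a gene-end interval were Dcn, Lum, Pdgfra and Thy1. None of 5 osteoblast or 4 endothelial markers had one, nor did 5 of 6 epithelial markers, and 2 of 4 haematopoietic markers did (Cd68 and Cd79a). Some without one held intervals inside the gene, namely Runx2 with 8, Pecam1 with 2 and Pdgfra with 2. The chondrocyte and haematopoietic counts of gene-end intervals lay near the share of all genes.

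FACIT collagens other than type IX were split by gene. Col16a1, found around fibroblasts and in skin, had the second highest total signal at a gene end among collagen genes (155301, maximum 40). Its interval ran from 130047000 to 130051540 on chromosome 4, and its called region also held intervals upstream of the gene, from 130034696 on. Col12a1, a fibril-associated collagen of dense connective tissue, had an interval of 5879 bp near its upper end (total 71556, maximum 33). It stopped inside the gene, at 79720200, while the gene ends at 79721141. With windows of 500 bp or an overlap of 200 bp it did not count as a gene-end interval. Col20a1 had one with a total signal of 49280 and the lowest maximum of the 19, 15. That interval stopped 1395 bp short of the RefSeq start and reached the end of Arfgap1 too, and another interval of the same called region covered the start. Col14a1, which accompanies type I fibrils, had 2 intervals inside the gene (total signals 18377 and 15876) and none at its ends. Col22a1, known from tissue junctions, had 2 inside (28253 and 18542), and Col19a1 had none within 59706 bp.

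The remaining classes added few gene ends. Col8a1 and Col8a2, which form the hexagonal lattice under the corneal endothelium, had total signals of 25946 and 69123 and equal maxima of 24. The Col8a2 interval stood at the 3′ end of the gene, where it also reached Adprhl2, and its RefSeq start was 9306 bp from the nearest interval. Col18a1, the multiplexin that yields endostatin, had an interval over its outermost start (total signal 29430, maximum 18), with the maximum itself at -3844 bp and outside the interval. The strongest region of Col18a1 lay inside the gene (total 92958, maximum 42), and the other annotated start was 2422 bp from any interval. Col15a1, the other multiplexin, had 2 inside the gene. Among transmembrane collagens Col23a1 had 39608 at the start and 76369 at the 3′ end, the interval at the 3′ end reaching Phykpl. Col13a1, Col17a1 and Col25a1 had no gene-end interval and held 1, 2 and 1 inside the gene, and that of 8754 bp in Col17a1, the hemidesmosome collagen of skin, had a total of 147026. Col7a1, which makes the anchoring fibrils under epidermis, had total signals of 28100 at the start and 23329 at the 3′ end, where Ucn2 was also reached. Col26a1 had 4 intervals inside the gene and Col28a1 had 1.

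Inside genes, 33 of 44 collagen genes (75%) had an interval, against 52.8% of all protein-coding genes and 65.1% of those 20 kb or longer. Collagen genes are long, with a median of 114 kb against 17.2 kb for all genes, and the part of length in this count was not tested. Pooled over genes, collagen genes of any length held 1.87 intervals per 100 kb of gene, against 1.73 in all genes. In genes of 20 kb or longer it was 1.23, and the pooled value for collagen genes of that length was not computed. With 50 kb at either side, 39 of 44 had one (88.6%), against 71.0% of all genes. Among genes of 20 kb or longer the shares were 87.5% and 79.2%. The 102 intervals in collagen genes were unevenly spread, and 55 of them lay in 7 genes: Col5a1 with 12, Col27a1 with 10, Col18a1 with 9, Col23a1 with 8, Col20a1 with 6, and Col2a1 and Col7a1 with 5 each. In Col5a1 they ran from the start to 147.2 kb downstream, with a maximum of 47 over the start and between 14 and 33 inside the gene. Col1a1 had 13 intervals in or within 50 kb of a gene of 16819 bp, 11.13 per 100 kb, while Col1a2 had 2, or 1.47 per 100 kb. The interval of Col1a2 away from the gene end was centred at -16.9 kb from the start (total signal 18860, maximum 21), and a far-upstream enhancer of mouse Col1a2 is known from transgenic mice. The median density with 50 kb at either side was 1.33 per 100 kb over collagen genes and 1.31 over all genes. Among genes of 20 kb or longer it was 1.13 over collagen genes and 1.22 over all.

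Gene length and gene-end intervals went together in this family. Collagen genes with a gene-end interval had a median length of 35.9 kb and those without 139 kb, whereas over all genes the medians were 21.5 and 13.1 kb. Of 15 collagen genes under 50 kb, 11 had a gene-end interval, against 46.2% of all genes of that length. Of 3 from 50 to 100 kb, Col16a1 alone had one, against 56.1% of all genes. Of 26 collagen genes of 100 kb or longer 7 had one, against 46.6% of all genes. Among genes of 20 kb or longer the collagen share was 40% against 54.0%. The short genes without one were Col5a3, Col10a1, Col11a2 and Col17a1, and the long ones with one were Col5a1, Col5a2, Col8a1, Col12a1, Col18a1, Col23a1 and Col27a1.

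The CpG content of the promoter, which divides genes in general, did not divide collagen genes in the same way in these counts. The promoter table held 35 of the 44 genes, all but Col1a1, Col2a1, Col4a3, Col5a2, Col9a3, Col12a1, Col14a1, Col22a1 and Col26a1. An interval lay within 1 kb of the outermost start at 14 of 35 (40%), against 45.8% of 17492 genes. Genes with an interval at the start had a median CpG observed/expected ratio of 0.47 among collagens and 0.80 among all genes, and genes without one 0.44 among collagens and 0.27 among all genes. Below a ratio of 0.25, 3 of 8 collagen starts had an interval, Col3a1, Col6a1 and Col20a1, against 7.96% of all genes. From 0.25 to 0.5 it was 5 of 12, Col1a2, Col6a2, Col6a5, Col7a1 and Col9a2, against 23.3%. From 0.5 to 0.75 it was 5 of 9, Col8a1, Col16a1, Col18a1, Col23a1 and Col27a1, against 59.6%. At 0.75 or more Col5a1 alone of 6 had one, against 79.6% of all genes, and the other members were Col4a1, Col4a2, Col8a2, Col13a1 and Col25a1. Col4a1 and Col4a2 share a common start region, so they are not separate sites in the highest bin. With 6 to 12 collagen genes per bin, these shares rest on few genes.

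**Figure D4:**
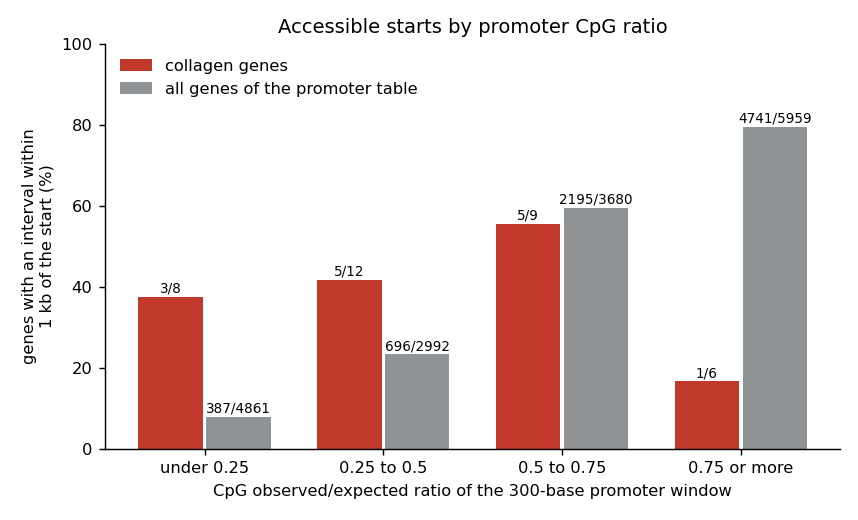
Share of genes with an interval within 1 kb of the outermost RefSeq start (y axis, %) by CpG observed/expected ratio of the promoter window (x axis), for collagen genes (red) and all genes of the promoter table (grey), with counts above the bars. The grey bars climb from 7.96% to 79.6%, and the red bars go from 37.5% in the lowest bin to 16.7% in the highest.

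The letters of core promoter motifs occurred at shares that are given here beside those of all genes. On either strand of the 300-base window TATAAA was in 5 of 35 collagen promoters and 13.3% of all, CCAAT in 12 of 35 and 39.2% of all, and GGGCGG in 22 of 35 (62.9%) and 46.3% of all. Of the 14 collagen starts with an interval, 11 held GGGCGG, against 69.4% of all promoters with an interval at the start. CCAAT was in 4 of the 14, against 39.6% of those promoters, and TATAAA in 1, Col3a1, against 6.04%. A match describes letters only, not a bound factor.

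The chromosomal surroundings of these genes differed as well. Of the other genes within 5 Mb, a median of 62.2% had a gene-end interval around the 19 collagen genes with one, and 50% around the 25 without. Col5a1 (77.6%), Col6a2 (76.1%), Col8a2 (75.4%) and Col1a1 (70.1%) stood in rich surroundings, and Col1a1 lies on chromosome 11 beyond 90 Mb, where 77.2% of genes had one. Col1a2 had its interval where only 15.4% of the genes around it did, Col8a1 where 31.1% did and Col3a1 where 37.5% did. Conversely Col26a1 (82.8%), Col17a1 (67.8%) and Col13a1 (61.0%) lacked a gene-end interval in rich surroundings. The part of the surroundings in these counts was not tested.

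**Figure D5:**
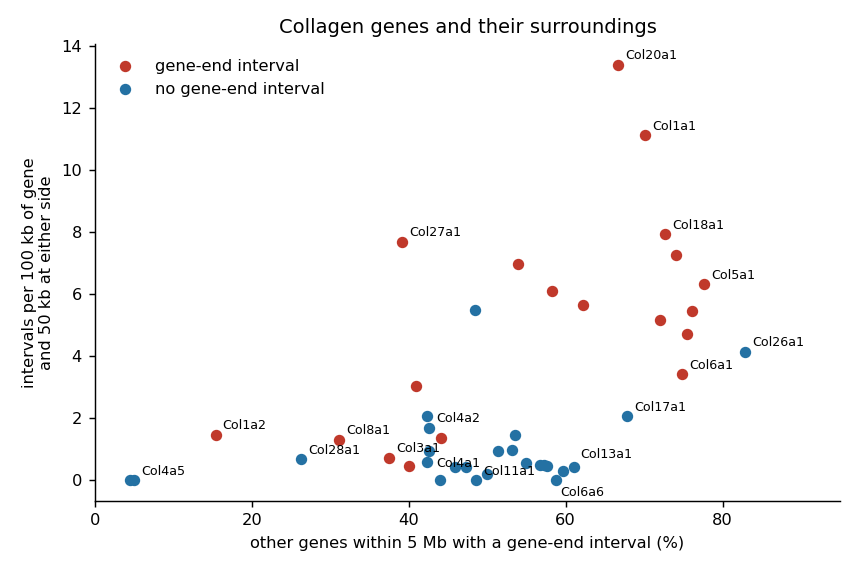
Intervals per 100 kb of each collagen gene with 50 kb at either side (y axis) against the share of other genes within 5 Mb that had a gene-end interval (x axis, %), red for collagen genes with a gene-end interval and blue for those without. Col1a2 is a red point at 15.4% and Col26a1 a blue one at 82.8%.

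Genes that process, secrete and bind collagen had gene-end intervals at 41 of 69 genes on 5 lists (59.4%), against 43.2% of the collagen genes and 47.4% of all genes, and their median total signal was 45031 and median maximum 32. The direction against other genes turned in some settings. Among genes of 20 kb or longer the share was 44.4% for modification and folding and 45.5% for cleavage and crosslinking, against 54.0% of other genes. At transcription starts only it was 33.3% for receptors, against 45.9% of other genes. Among enzymes and chaperones that modify and fold the chains 13 of 20 had one, led by Fkbp10 and P3h4 (both 138365, neighbours in 1 called region on chromosome 11), the lysyl hydroxylase Plod3 (136872) and the prolyl 3-hydroxylase P3h1 (111345), while Colgalt2, Creb3l1 and Fkbp14 were the first without. The collagen chaperone Serpinh1 (68139) and the prolyl 4-hydroxylase subunit P4ha1 (49334, with a maximum of 75) had one and its partner P4hb had none. Secretion genes had 7 of 9, led by Tram2 (91139), the COPII genes Sar1a (79045), Sec23a (65762) and Sec24d (38064), with Mia2 and Sar1b lacking. Genes of propeptide cleavage and crosslinking had 9 of 15, led by the lysyl oxidase relative Loxl1 (104646), the enhancer of C-proteinase Pcolce (76371), the N-proteinase Adamts14 (72853) and Loxl3 (61138), and Adamts2, Adamts3 and Fap were the first without. Fibril-associated proteins had 7 of 15, with Tnxb (191841), Fbn1 (111805), Thbs1 (101621) and Thbs2 (45332) highest and Bgn, Dcn and Fmod first among those without. Collagen receptors had 5 of 10, the endocytic receptor Mrc2 (150432), the discoidin receptors Ddr1 (96096) and Ddr2 (67906), and the integrin chains Itgb1 (38044) and Itga1 (24893), and Gp6, Itga10 and Itga11 were the first without.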

How the data were processed

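The study profiled 6 samples of 1 mouse fibroblast line by ATAC-seq, grouped by the labels for genotype and treatment. The authors deposited the Ezh2 -/- list of intervals used here, which names no replicate. Per the submitters' processing notes, the peak caller SEACR, the aligner Bowtie2 2.2.9, deepTools and the mm10 build were used. The threshold, control, duplicate handling, transposase shift and pooling: not given in the sources used here. Columns were read in the order SEACR writes, as no header is present. The deposited total signal of a called region is a score in the authors' unit, and the deposited maximum signal is a height whose normalization is not stated. Of 19215 called regions 2148 appear as several intervals that repeat their values, and 18.3% of 21835 intervals do not overlap their own region of maximum. Depth is unknown.

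Genes came from a RefSeq table on GRCm38, the assembly behind mm10, and starts and strands from the RefSeq promoter table. An interval counted with 1 bp of overlap, and a gene's value is that of the called region of highest total signal. All collagen genes were named, with the 4 strongest pathway genes of each list by total signal, up to 3 lacking an interval taken alphabetically, and a few chosen after their values were seen. Members, lists and alternatives were chosen with earlier results of these data known, and the length and CpG bins after the values were seen. The plan had no test, since the list holds no replicates. Python 3.11.15, numpy 2.4.6, pandas 2.3.3 and matplotlib 3.10.9 were used, and the interval lookup was checked on simulated data.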

Additional observations from a re-analysis of the deposited data

How the results depend on the processing

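Of 70 recomputed main values, 63 stayed within 1.5 times and 7 moved further. Part of the values that stayed could not have moved. A changed background leaves a count as it is, and stricter settings cannot raise a count of 0. Of 100 recomputed counts of the small classes and pathway lists, 83 stayed and 17 moved. At starts only, fibril-associated proteins had 3 of 10 (30% against 45.9% of other genes). Above the upper quartile of total signal, 11 collagen genes had a gene-end interval (25%, against 19.6% of other genes), as did 3 fibrillar genes and 1 cartilage gene, and 20 collagen genes had an interval in the body or within 50 kb. At transcription starts only, counts were 4 of 8 fibrillar genes, 3 of 5 FACIT genes and 1 of 5 cartilage genes, with fewer genes in the promoter table. The type IV genes had 0 under every alternative run, but most of these runs could only keep a count of 0. Windows of 2500 bp or the use of transcription starts could have raised it. The collagen share was below that of other genes in the main setting and above it with regions over the median (34.1% against 32.7%) or the upper quartile of total signal. The FACIT share fell below other genes with windows of 500 bp, an overlap of 200 bp or intervals holding their maximum (44.4% in each) and among genes of 20 kb or longer (50% against 54.0%), and the cartilage share rose above with windows of 2500 bp (57.1% against 50.2%). The intervals of Col2a1 and Col1a2 at gene ends are among the weakest of the list, so a stricter threshold loses them. Counting intervals inside the gene only was added after seeing the data (33 genes). No paired analysis was possible because the list has no value per replicate, and leaving out a replicate was not run for the same reason.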
